A study of Trichosurus vulpecula with 6 samples.

Results

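Of the 249709 stranded multi-exon transcripts assembled from the skin of 6 brushtail possums, 21775 (8.72%) began with a first intron of at least 40 kb. These transcripts were chosen by length alone: exon 1 and exon 2 were read in the direction of transcription, and the gap between them had to measure 40000 nt or more. Exon 1 is the first exon that was assembled. Whether a further exon lay upstream of it was not tested, so a member can be an internal intron of its gene. Transcripts of different libraries or splice forms that shared both ends of this gap were counted as 1 distinct first intron, which gave 6470 long first introns among 92214 of any length (7.02%). The transcripts that began in a shorter first intron, 227934 in number, served as the comparison.

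The possums were wild adult females killed in pest control in Dunedin, 3 with grey and 3 with black fur, and no treatment was given. RNA of ear punch skin was made into poly(A)-enriched, strand-specific libraries, 1 for each animal, and StringTie assembled transcripts in each library separately. The level of a transcript is given in TPM, which corrects read coverage for the length of the transcript and the size of the library. All positions refer to the possum reference assembly mTriVul1.pri.

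An intron is removed from the primary transcript when its flanking exons are spliced together, and the first intron is in many mammalian genes the longest. It lies next to the promoter and often separates an untranslated first exon from the coding exons, so a gene with several promoters can join different first exons to the same second exon. The agouti signalling protein gene, ASIP, is built in this way: its product acts on the melanocortin receptor of melanocytes and shifts pigment from black to yellow, and its promoters differ between body regions in mice.

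The aligned bases, taken from the ratio of coverage to FPKM, ranged from 4.17 gigabases in grey replicate 1 to 10.2 gigabases in grey replicate 3. The 4 fibroblast and 4 melanocyte markers were above 0 TPM in all 6 libraries, with a summed level of the melanocyte markers of 58.3 to 235 TPM. None of the 4 keratinocyte markers was listed under its symbol in the gene table, so the epidermis was not checked in this way. Black replicate 1 also held 2294 TPM of 4 skeletal muscle markers against 1.89 to 5.23 TPM elsewhere. In bulk skin, fewer cells of a type and less RNA per cell cannot be told apart.

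The long first introns had a median of 66.4 kb, with the middle part of the distribution between 50.5 and 96.9 kb and a highest value of 481 kb. All first introns together had a median of 2.48 kb. Of the long ones, 1534 reached 100 kb, 284 reached 200 kb and 20 reached 400 kb. Their number declined smoothly across the limit of 40 kb. Just inside it lay ATP9B, a P4-type ATPase gene, with introns of 40004 and 40007 nt, and just outside it lay ERICH1 (39998 nt), the interferon receptor gene IFNAR1 (39997 nt) and the lipid phosphatase gene PLPP1 (39994 nt). In 85.8% of the chosen transcripts the first intron was also the longest of the transcript, against 47.2% of the others, a difference to which the choice by length contributed.

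**Figure D1:**
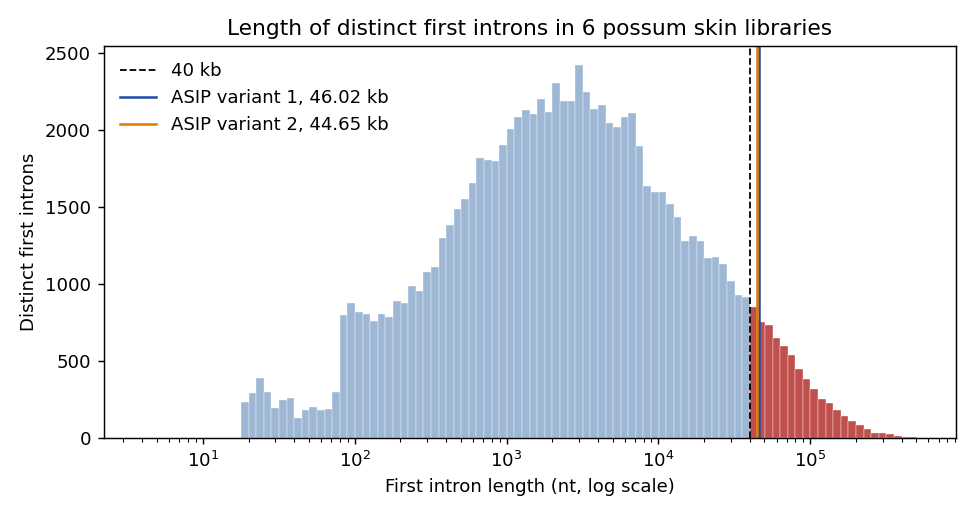
Histogram of the 92214 distinct first introns by length in nt (log scale), with counts of introns on the vertical axis; red bars are the 6470 introns of at least 40 kb, the dashed line marks 40 kb, and coloured lines mark both ASIP first introns. The ASIP introns lie in the upper tail of all first introns, near the lower end of the long ones.

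The first introns of ASIP belonged to the shorter members. The intron of transcript variant 1 (chromosome 3, forward strand, 100433668 to 100479687) measured 46020 nt, and that of transcript variant 2 (100435040 to 100479687) measured 44648 nt. Among the distinct long first introns, 15.6% were shorter than the former and 12.5% were shorter than the latter, and 5460 were longer than both. Among first introns of any length, 94.1% and 93.9% were shorter. The ASIP introns thus stood high among all first introns and low among those of at least 40 kb.

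Around the ASIP introns in length lay introns of genes with unlike levels. Below the intron of variant 1 came ADAM12, a metalloprotease gene (46.0 kb, mean 0.592 TPM, in 4 libraries), SEMA6D, a semaphorin gene (46.0 kb, 2.41 TPM), and CD82, a tetraspanin gene (45.9 kb, 145 TPM). Above it came LGR6, a receptor of hair follicle stem cells (46.0 kb, 3.59 TPM), FRMD1 (46.0 kb, 20.9 TPM) and the kinase gene MAP2K3 (46.1 kb, 21.9 TPM). Neighbours of the intron of variant 2 were CAMKK1 and EGR3 below and FBXO31, LPAR1 and SEMA7A above, with means of 4.63 to 15.5 TPM. A neighbour had to be assembled in at least 4 libraries to be named, and all of these except ADAM12 were assembled in 6. The means spanned 0.592 to 145 TPM within 2 kb of length.

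The TPM of the members was low, as it was for the other transcripts. The median over the 21775 transcripts was 2.25 TPM, the range ran from 0.187 to 1438 TPM, and 29.97% were below 1 TPM against 31.7% of transcripts with a shorter first intron. Variant 1 of ASIP was assembled in 3 libraries, with a TPM of 3.88 in grey replicate 1 and of 0.609 and 1.38 in black replicates 1 and 2. Variant 2 was assembled in 4 libraries, with a TPM of 0.412 in grey replicate 3 and of 3.45, 0.905 and 0.577 across the black libraries. The colours overlapped for variant 1, whereas for variant 2 each black library was above each grey one, by 0.577 against 0.412 TPM at the nearest. In grey replicates 1 and 2 variant 2 was not assembled and counted as 0. Of all first introns with a mean of at least 1 TPM, 3.32% had each black library above each grey one. Variant 2 lay below that mean, and the share among introns of its own level was not counted. The ASIP gene totals overlapped, at 3.88, 1.65 and 0.412 TPM in the grey and 4.05, 2.28 and 1.39 TPM in the black possums. Averaged over 6 libraries, with a library without the intron taken as 0, the variants stood at 0.979 and 0.890 TPM, and 66.0% and 64.9% of the long first introns had a lower mean.

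No difference between the colours in the use of introns of this length was larger than the spread between animals. The number of transcripts with a long first intron was 2900, 3664 and 4100 in grey replicates 1 to 3 and 4012, 3639 and 3460 in black replicates 1 to 3. The lowest and the highest number were both in grey possums, in the shallowest and the deepest library. The mean was 3704 ± 282 (SD, n = 3) in black and 3555 ± 607 in grey skin, a difference of 149 (exact 2-sided permutation test, p = 0.90, where 3 against 3 cannot give less than 0.10). Without grey replicate 1 the difference was −178 and without black replicate 1 it was −5.17.

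The share of multi-exon transcripts that these numbers stand for lay between 8.41% and 8.86% in all libraries. It was 8.41, 8.72 and 8.78% in the grey and 8.86, 8.80 and 8.69% in the black possums, so that the colours overlapped. The difference was 0.148 percentage points (exact 2-sided permutation test, p = 0.40). The share of multi-exon TPM was 3.73, 3.95 and 3.63% in the grey and 3.76, 3.62 and 3.64% in the black possums, a difference of −0.0995 percentage points (exact 2-sided permutation test, p = 0.60).

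Within each library, transcripts with a long first intron were set against those with a shorter one. They had longer first exons, with medians of 201, 212 and 218 nt in grey replicates 1 to 3 and 206, 200 and 194 nt in black replicates 1 to 3. The medians of the other transcripts were 151, 171 and 172 nt in the grey and 168, 162 and 165 nt in the black possums. The groups of medians did not overlap. The difference was 40.3 nt (205 ± 8.73 against 165 ± 7.73 nt, SD over 6 libraries), and all 6 libraries had the same sign (exact 2-sided sign-flip permutation test, p = 0.03125, the smallest that 6 libraries can give).

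The same transcripts had more exons, with a median of 9 in 5 libraries and of 10 in grey replicate 3 against 6 in all libraries (exact sign-flip permutation test, p = 0.03125). Their distinct first introns were assembled in at least 1 other library more often, at 78.1 ± 2.02% against 71.6 ± 2.14% (6 of 6 libraries, exact sign-flip permutation test, p = 0.03125). A shared intron counts in each library that holds it, so these recurrence values are not independent and their p-value is not exact. The share carrying the identifier of a guide transcript, which came from an annotation with genes of other species, was 0.183% against 0.559%, with SDs of 0.05 and 0.0517 (6 of 6 libraries, exact sign-flip permutation test, p = 0.03125). The median TPM was 2.31 ± 0.591 against 2.01 ± 0.496, higher in 6 of 6 libraries (exact sign-flip permutation test, p = 0.03125). With transcripts of at least 1 TPM only, this last difference turned to −0.0254 TPM (exact sign-flip permutation test, p = 0.81), while the other differences kept their sign. All libraries share a genome and a guide annotation, so the sign-flip tests measure the spread between libraries only.

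**Figure D2:**
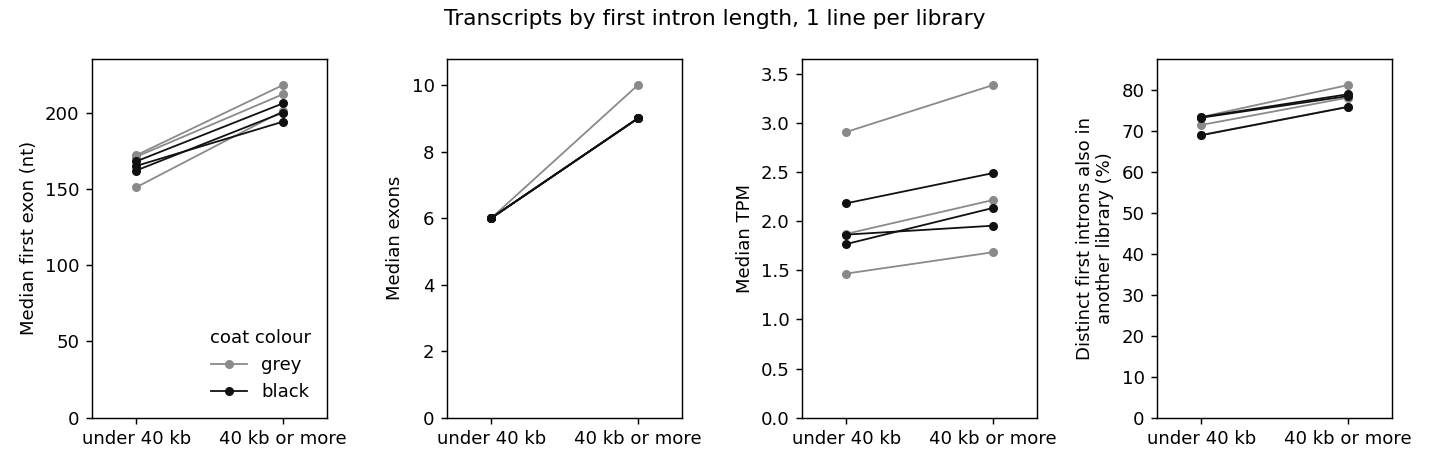
Medians over transcripts of first exon length (nt), exon number and TPM, and the percentage of distinct first introns also assembled in another library, for first introns under 40 kb and of at least 40 kb; each line is 1 library, grey or black by coat colour. All lines rise from left to right, by 40.3 nt, 3.17 exons, 0.30 TPM and 6.52 percentage points on average.

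Against this background, the first exon of ASIP variant 1 was unusually short as assembled. Over all members the first exon ranged from 18 to 5730 nt, with a median of 206 nt, and the middle of the distribution lay between 111 and 394 nt. A first exon of at most 36 nt, the longest seen for variant 1 (30 to 36 nt), occurred in 724 members (3.32%) and in 4.02% of transcripts with a shorter first intron. The first exon of variant 2, with 95 to 279 nt, lay around the median. A first exon shorter than the 120 nt of a read was found in 27.2% of members and 34.3% of the others.

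The assembled start of the first exon differed between libraries even where the intron was shared by all. Whether transcription began elsewhere, or read coverage ended elsewhere, was not tested. The highest transcript of each library gave the length. Among the 1089 long first introns assembled in all 6 libraries, the longest and the shortest first exon of an intron differed by a median of 104 nt, with the middle of the distribution between 58 and 212 nt. Only 5 of the 1089 had 1 length throughout. For the 9391 shorter introns in all 6 libraries the median range was 70 nt, on first exons with a median of 176 nt against 272 nt for the long ones. Over all transcripts of an intron, the first exons of ATP2B4, TIMP3 and ACTN4 differed by no more than 100 nt. That of ARHGEF12 ran from 25 to 1065 nt over 18 transcripts, and these extremes may belong to the same library. For ASIP variant 2 the first exon ran from 95 to 279 nt over 4 libraries.

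Most distinct long first introns were assembled in 1 library only, which does not show that they were private to 1 animal. Of the 6470, 3491 (54.0%) were assembled in 1 library, 830 in 2, 415 in 3, 293 in 4, 352 in 5 and 1089 (16.8%) in all 6. Of the shorter introns 59.7% were in 1 library and 10.95% in all 6. Recurrence followed the level of the intron. From a mean of 0.5 to 1.5 TPM, 2.44% of long introns were assembled in all 6 libraries, and this share was 28.8% from 1.5 to 5 TPM, 76.1% from 5 to 20 TPM and 86.9% above 20 TPM. The mean counts a library without the intron as 0, so level and recurrence share these values. At each of these levels the shorter introns were in all 6 libraries less often by count, at 1.26%, 17.0%, 60.5% and 82.6%, a difference that was not tested.

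**Figure D3:**
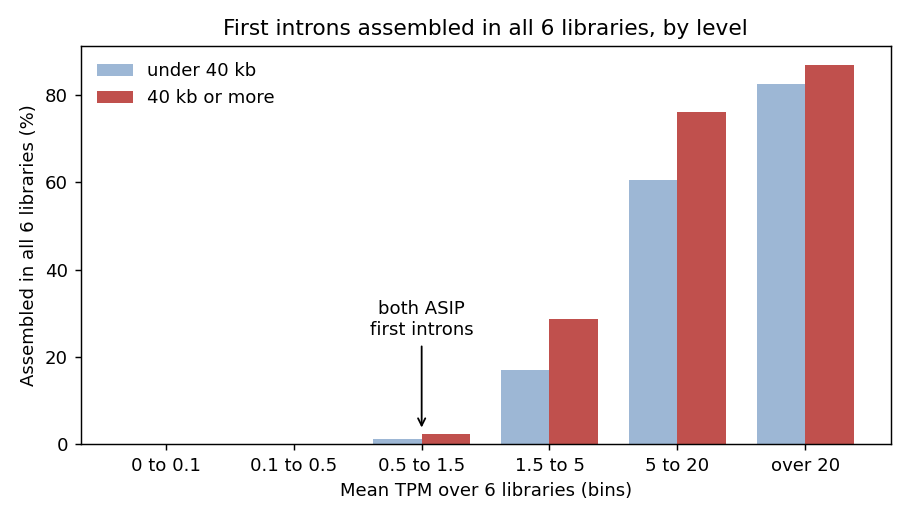
Percentage of distinct first introns assembled in all 6 libraries (vertical axis) in bins of the mean TPM over 6 libraries, for introns under 40 kb (blue) and of at least 40 kb (red). The share rose from 2.44% to 86.9% of long introns between the bin that holds both ASIP introns and the highest bin.

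The incomplete recurrence of the ASIP introns was common for their level. Of the 943 long first introns with a mean of 0.5 to 1.5 TPM, 60.3% were assembled in 1 or 2 libraries, 29.1% in 3 or 4 and 10.6% in 5 or 6. Variant 1, in 3 libraries, shared its number with 17.4% of them and variant 2, in 4 libraries, with 11.7%. Both introns were below the mean of 1 TPM that was required for the comparison of single introns by colour and were not tested there.

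Where an intron assembled in at least 2 libraries was missing from another, its ends were often still present. Of 5503 such absences, neither end was used by a first intron in 47.2%, the start of the second exon alone in 28.5%, the end of the first exon alone in 18.8%, and both ends, in other combinations, in 5.29%. For shorter introns neither end was used in 70.0% of 79024 absences. In the ASIP pair the shared end was the start of exon 2, and the 2 introns began 1372 nt apart.

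Several first exon ends joined to 1 second exon, the form that ASIP takes, recurred throughout the set. The long first introns ended at 5064 second exons, and 295 of these (5.83%, against 4.90% for shorter introns) received at least 2 long first introns that were each assembled in at least 2 libraries. They lay in 276 genes. In 235 cases there were exactly 2 such introns, with a median of 3199 nt between the ends of their first exons. The gap was no wider than in ASIP in 101 of them and at most 20 nt in 14. Different ends of overlapping first exons were counted as well as separate first exons.

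The genes with the most first exon ends of this kind were IQSEC1 and GATAD2A, with 5 each, and ATP2B1, ATP2B4 and SPTBN1, with 4 each. Some of these ends belonged to overlapping first exons. In SPTBN1, for instance, the introns of 72698 and 72610 nt followed overlapping first exons of 148 to 196 nt and 236 to 284 nt. ATP2B1 and ATP2B4 encode calcium pumps of the plasma membrane, and in each 1 form led. The leading intron of ATP2B1 (71.9 kb) held 65.5, 72.9 and 44.1 TPM in the grey and 46.0, 36.3 and 61.0 TPM in the black possums, 85.6% of the gene's level. Here and elsewhere, such a share is the mean of the shares in the 6 libraries. The other 3 had means of 1.54 to 4.67 TPM and were each in 3 libraries. In SPTBN1, a spectrin gene of the membrane skeleton, the leading intron (72.7 kb) held 57.2% of the level with a mean of 27.7 TPM.

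IQSEC1, which encodes an exchange factor of ARF GTPases, had 2 forms of like level that changed places between animals. The intron of 138 kb held 15.1, 7.47 and 22.0 TPM in the grey and 2.67, 7.64 and 0 TPM in the black animals. The intron of 156 kb, which began further upstream, held 0.938, 0 and 14.2 TPM in the grey and 5.94, 4.60 and 9.04 TPM in the black animals. The colours overlapped for both, and neither passed the test across all first introns (limma adjusted p = 0.88 for each).

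The reverse arrangement, 1 first exon joined to several second exons, was found for 225 of the 2724 first exon ends used in at least 2 libraries. Among the 255 pairs of neighbouring second exon starts so formed, 17 (6.67%) lay exactly 3 nt apart, whereas 0 lay 1, 2 or 4 nt apart. For shorter introns 208 of 2951 pairs (7.05%) lay 3 nt apart. Such a step adds or removes 1 triplet of the transcript. Both forms were assembled in all 6 libraries in 4 of the 17 pairs, among them UXS1, which encodes an enzyme of UDP-xylose synthesis needed for proteoglycans.

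In UXS1 the intron of 50398 nt held 29.9, 14.5 and 19.5 TPM in the grey and 21.6, 20.2 and 20.2 TPM in the black animals. The intron of 50401 nt held 9.21, 12.7 and 9.29 TPM in the grey and 9.29, 12.8 and 11.95 TPM in the black animals. The shorter form was thus the higher one in each animal. MITF, which encodes the transcription factor that directs melanocyte development, had the same step at 161 kb. Its intron of 161176 nt was in all libraries, at 4.05, 2.39 and 5.64 TPM in the grey and 6.59, 8.12 and 8.73 TPM in the black possums, and did not overlap between the colours. The intron of 161179 nt held 6.34, 1.74 and 2.92 TPM in the grey and 2.11, 0 and 0 TPM in the black possums. Neither form passed the limma test (adjusted p = 0.88 for each). Single-base details of MITF and the other pairs rest on the assembler's placement of the splice site.

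For 19.5% of the distinct members the first exon lay outside the annotated gene, as it does in ASIP. The spliced end of the first exon fell inside the span of the transcript's own RefSeq gene for 3875 distinct introns (59.9%), outside any gene for 1261, inside another gene for 214 (3.31%), and 1120 (17.3%) were assigned to no gene. Of the 1261, 1253 lay upstream of their gene, at a median of 60.9 kb and in 776 genes. At least 40 kb upstream lay 954, of which 412 were in at least 2 libraries and 83 in all 6. The first exons of ASIP ended 46.0 and 44.7 kb before the start of the annotated gene. For shorter introns the share outside any gene was 6.83%. A long intron reaches further from the gene, so this difference is linked to the choice by length and was not tested. For the 1089 introns in all 6 libraries the end lay inside the own gene in 967 and outside any gene in 100.

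The highest introns of this upstream kind belonged to FAR2, LOC118840102, MAP7D2, CHL1 and MAP4, which were named after their values were seen. FAR2, which encodes a fatty acyl-CoA reductase of wax synthesis, began with an intron of 40.2 kb at 226, 378 and 117 TPM in the grey and 92.8, 181 and 97.0 TPM in the black possums. CHL1, a cell adhesion gene, had 34.3 to 60.4 TPM behind an intron of 56.5 kb. MAP4, a microtubule-associated protein gene, lay between 10.3 TPM (grey replicate 1) and 74.2 TPM (black replicate 1).

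Where the first exon ended inside the span of another gene, 1 assembled transcript joined the spans of 2 annotated genes. The highest member of all was of this kind. Whether the first exon matched an exon of that other gene was not tested. The transcripts assigned to LOC118846364 (chromosome 4, intron of 70.9 kb) began in LOC118846417 and passed over 2 coding genes. They held 932, 811 and 0 TPM in the grey and 615, 1438 and 852 TPM in the black possums, which was 9.04% of the level of the gene. A transcript from KRT23 to LOC118846615 (174 kb, passing over the keratin gene KRT20) held 689 and 1031 TPM in grey replicates 2 and 3 and was absent elsewhere. A transcript from KRT79 to LOC118850439 (201 kb, passing over 7 coding genes with KRT3, KRT4 and KRT77 among them) held 756 TPM in black replicate 1 alone. Keratin genes lie in clusters of similar sequence, and whether reads were shared between copies was not tested. These transcripts stayed in the counts.

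Among introns assembled in all 6 libraries, the highest were those of abundant skin genes. TIMP3, an inhibitor of matrix metalloproteases, began with an intron of 45.0 kb (chromosome 5, forward strand, 291592138 to 291637131), close to ASIP in length but not in level. Its TPM were 536, 253 and 298 in the grey and 210, 444 and 236 in the black possums. It was followed by TMEM45A, a transmembrane protein gene of keratinising epidermis (68.8 kb, mean 323 TPM), ECRG4 (42.1 kb, 304 TPM), ELOVL6 (84.3 kb, 296 TPM), IGFBP7 (71.1 kb, 276 TPM), APLP2 (64.5 kb, 248 TPM), ELOVL5 (59.8 kb, 228 TPM), CAPZB (71.9 kb, 226 TPM), FAR2 and ACTN4 (50.0 kb, 182 TPM). In each of these 10 the long intron carried 82.8 to 100% of the gene's TPM.

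ELOVL6 and ELOVL5 encode fatty acid elongases. ELOVL6 held 393, 615 and 225 TPM in the grey and 169, 263 and 110 TPM in the black possums. ELOVL5 held 297, 418 and 134 TPM in the grey and 132, 249 and 140 TPM in the black possums. In both genes grey replicate 2 was the highest library, and the colours overlapped. APLP2, which encodes a relative of the amyloid precursor protein, lay between 212 and 287 TPM and CAPZB, which encodes an actin capping subunit, between 194 and 263 TPM.

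**Figure D4:**
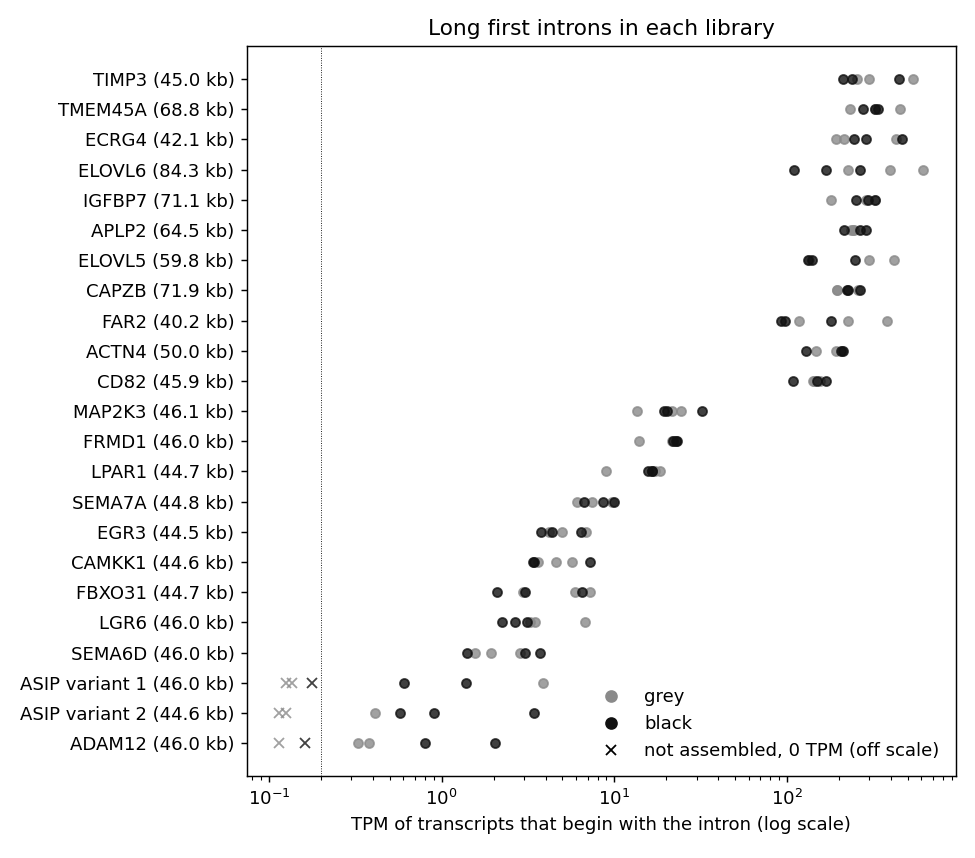
TPM of transcripts that begin with the named intron (log scale) in each library, for the 10 highest introns in all 6 libraries, introns nearest in length to those of ASIP and both ASIP introns; grey and black points are the coat colours and crosses left of the dotted line, 1 for each library, mark that the intron was not assembled. Introns close to ASIP in length reach from 0.592 TPM (ADAM12) to 330 TPM (TIMP3) on average.

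The longest introns assembled in all 6 libraries were found at low levels, except for the last of them. GPM6A, a membrane glycoprotein gene, began with 440 kb at a mean of 2.06 TPM, SDK1 with 377 kb at 0.863 TPM, MECOM with 365 kb at 1.85 TPM and SH3RF3 with 329 kb at 2.02 TPM. EXT1, which encodes a glycosyltransferase of heparan sulphate synthesis, spliced out 297 kb at 16.6, 20.6 and 14.3 TPM in the grey and 16.1, 16.7 and 12.2 TPM in the black possums. In EXT1 the intron carried 99.5% of the gene's level, in SDK1 13.6%. Introns several times as long as those of ASIP were thus assembled in each library.

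By gene, 2571 of the 15468 measured genes (mean of at least 1 TPM) had a long first intron in at least 1 library, a share of 16.6%, and 1032 (6.67%) had the same one in all 6. Over the 2571 genes the long introns carried at least 90% of the gene's TPM in 645, 50 to 90% in 623, 10 to 50% in 648 and less than 10% in 655. For the 1032 genes the median was 93.2%.

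Of 27 measured pigmentation genes 11 had a long first intron (40.7%, beside 16.6% of all genes), a difference that was not tested. ASIP, whose introns were known beforehand, was 1 of the 11. In 4 of the 11, KIT, KITLG, MITF and MYO5A, 1 intron was in all 6 libraries (14.8%, beside 6.67%). KIT, the receptor that melanoblasts need for survival and migration, began with an intron of 43.7 kb, the nearest in length to ASIP among these. It held 6.29, 7.02 and 4.08 TPM in the grey and 4.23, 4.71 and 6.01 TPM in the black possums, 100% of the gene. KITLG, its ligand, had 54.7 kb and 11.7 to 27.1 TPM. MYO5A, the motor that carries melanosomes, had 82.7 kb and 5.46 to 9.28 TPM. The colours overlapped for KIT, KITLG and MYO5A. As given above, they did not overlap for the MITF intron of 161176 nt but did for that of 161179 nt. Each black library was above each grey one for 3.31% of the long first introns with a mean of at least 1 TPM. The MITF gene totals overlapped, with 10.4 TPM in grey replicate 1 above the 10.2 TPM in black replicate 2.

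In the other pigmentation genes the long introns were in 1 to 4 libraries. OCA2, a melanosomal transporter, began in 4 libraries with an intron of 41.6 kb from a first exon outside the annotated gene, at 3.04 and 0.518 TPM in grey replicates 2 and 3 and 0.849 and 2.17 TPM in black replicates 1 and 3. BNC2 had an intron of 177 kb in 3 libraries (mean 1.31 TPM). In CORIN, PAX3 and RAB27A the long introns were in at most 2 libraries, with means of 0.340 TPM or less, and in TYR, which encodes tyrosinase, in black replicate 3 alone at 0.397 and 0.308 TPM. The TYR introns (reverse strand) began at 103962446 and 103905620, inside a gene that begins at 103975664. The TYR gene total in that library was 12.3 TPM.

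Regulators of the cytoskeleton, small GTPases and kinases had such introns most often among the lists, in 34 of 39 measured genes (87.2%) and in all libraries in 18. The counts were 36 of 53 (13 in all libraries) for transcription factors and cofactors, 20 of 36 (15) for growth factor and hormone signalling, 12 of 24 (10) for RNA-binding and splicing regulators, and 17 of 43 (11) for cell adhesion and matrix. Genes known for long introns in other mammals were placed in these lists, so these shares are no independent evidence against the 16.6% of all genes.

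Their highest members were receptors, adhesion molecules and regulators of connective tissue and epidermis. CDH13, a cadherin without a cytoplasmic domain, spliced out 249 kb at 82.7, 78.5 and 79.9 TPM in the grey and 88.1, 72.0 and 104 TPM in the black possums. RORA, a nuclear receptor (70.4 kb), held 34.2 to 73.1 TPM, and ITGA6, the integrin subunit of hemidesmosomes (53.5 kb), held 31.2 to 52.5 TPM. Growth factor receptors followed with TGFBR2 (42.6 kb, mean 39.7 TPM), GHR (65.8 kb, 38.9 TPM) and NOTCH2 (45.9 kb, 26.0 to 37.5 TPM), and RNA-binding proteins with PTBP3 (40.2 kb, 31.7 TPM), QKI (62.0 kb, 28.2 TPM) and MBNL2 (56.4 kb, 25.6 TPM). FBN1, the fibrillin gene, was the one of the 15 highest to be missing from a library, with 0 TPM in black replicate 2 against 10.1 to 40.8 TPM elsewhere.

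In the interval of chromosome 3 between the SNVs linked to coat colour, 20 distinct long first introns lay in 12 genes, 3 of them in all 6 libraries. These were CHMP4B, a subunit of the membrane scission complex ESCRT-III (53.3 kb), RALY (45.4 kb) and FLT4 (41.3 kb). RALY, which encodes an RNA-binding protein and whose deletion in mice brings the agouti gene under its promoter, held 53.2, 53.2 and 42.4 TPM in the grey and 63.9, 50.7 and 53.3 TPM in the black possums. ITCH, on the other side of ASIP, began with 49.5 kb at 16.7, 16.6 and 17.4 TPM in the grey and at 15.8, 12.9 and 0 TPM in the black possums. ASIP thus lay between genes with first introns of its own length and levels of 13.2 and 52.8 TPM on average.

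Few long first introns differed by colour. The TPM of transcripts sharing a first intron were compared with limma on log2(TPM + 1) for the 25018 first introns of any length with a mean of at least 1 TPM, of which 2177 were long. Over all of them 0.036% were higher and 0.02% lower in black skin at an adjusted p of 0.05. Of the 2177 long introns 2 were higher, those of RDX and LOC118846913, and 0 were lower, while 42 (1.93%) were below an unadjusted p of 0.05 beside 2.47% of all. Each black library was above each grey one for 72 (3.31%, beside 3.32%), and below for 56 (2.57%, beside 2.24%). These shares were near those of all first introns.

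RDX encodes radixin, which links actin filaments to the plasma membrane. Its intron of 50216 nt (chromosome 2, forward strand, 136609305 to 136659520) was not assembled in the grey possums and held 26.9, 22.99 and 23.1 TPM in the black possums. On the log2(TPM + 1) scale the difference was 4.66 ± 0.39 (SE, limma adjusted p = 0.024). The adjusted p rose to 0.14 with a pseudocount of 0.1 and to between 0.10 and 0.32 when any 1 of the 6 libraries was left out. The level of the gene did not pass the test (log2 difference −0.48, limma unadjusted p = 0.0148, adjusted p = 1.00).

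The grey libraries held the same exons in another arrangement. In each of them exon 1 of RDX, with its end at the same base (136609304), stood alone as a single-exon transcript at 11.05, 11.7 and 15.4 TPM. The remainder began 1, 3 and 3 bases before exon 2 at 21.9, 22.8 and 19.6 TPM. In the black libraries exon 1 was part of the spliced transcript and no such single exon was assembled. Summed over these parts the gene held 34.2 ± 1.05 TPM (SD, n = 3) in the grey possums and 24.3 ± 2.25 TPM in the black ones, where the separate first exon is counted as a transcript of its own. These gene totals did not overlap between the colours and were lower in the black possums. Of all measured genes, 2.27% had each black library below each grey one. Without the separate first exon the order turned. The parts from exon 2 onwards held 21.9, 22.8 and 19.6 TPM in the grey libraries. The spliced transcripts held 26.9, 22.99 and 23.1 TPM in the black ones. The direction thus depended on counting the separate first exon. A separate first exon ending at the splice site of a missing intron was found in 14 of the 5503 absences (0.254%), for 12 introns, and RDX was the only one with it in 3 libraries. Whether reads across this junction were present in the grey libraries was not tested.

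**Figure D5:**
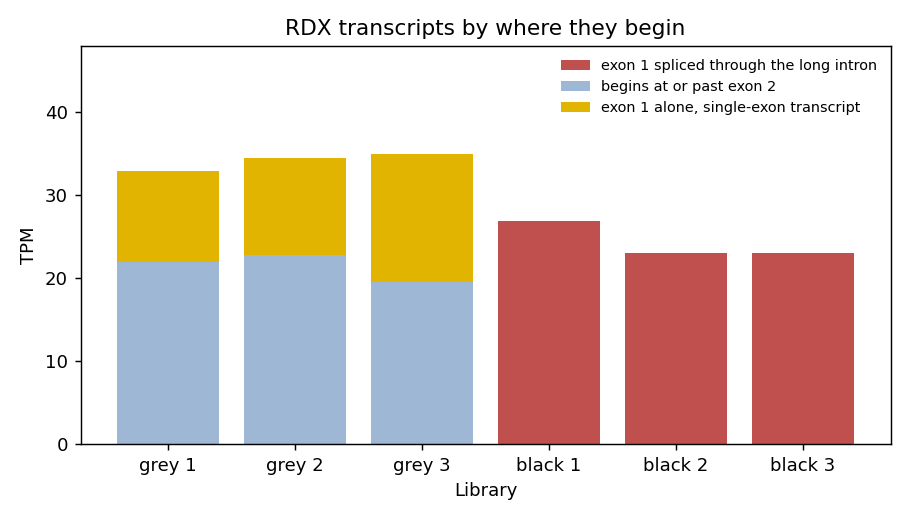
TPM of RDX transcripts in each library, stacked by where the transcript begins: exon 1 spliced through the long intron (red), a start near or past exon 2 (blue), and exon 1 alone (yellow). The main blue transcript of each grey library began 1 to 3 bases before exon 2. Grey libraries hold blue and yellow parts with 33.0 to 35.0 TPM in all, black libraries hold red alone with 22.99 to 26.9 TPM.

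LOC118846913 (chromosome 4, reverse strand) was named after its values were seen. Its first exon of 249 nt was joined to 3 different second exons. The annotated gene spans only 164878685 to 164879020, so all 3 second exons lay outside it. Whether these transcripts join separate genes, or reads were shared between similar sequences, was not tested. The intron of 88859 nt (164789934 to 164878792) was not assembled in the grey possums and held 166, 118 and 232 TPM in the black possums (log2 difference 7.38 ± 0.31 SE, limma adjusted p = 0.0015). Without black replicate 1 the adjusted p was 0.097. The intron of 101455 nt from the same first exon held 0, 160 and 193 TPM in the grey and 171, 114 and 32.7 TPM in the black possums, and that of 67161 nt was found in grey replicate 3 and black replicate 3 at 81.2 and 222 TPM. The called intron carried 5.82% of the level of the gene.

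The other introns with the smallest p for each direction did not pass the test. Higher in black were TBC1D5 (51.3 kb), with 8.78, 9.35 and 4.60 TPM against 0 in each grey library (limma adjusted p = 0.46), NINJ2, EXD3 and PC (limma adjusted p = 0.88 for each). Lower in black were NT5C3A (49.2 kb), with 9.11, 16.3 and 8.66 TPM in the grey libraries against 0, and RBPJ, the DNA-binding partner of Notch (40.02 kb), with 8.12, 16.8 and 8.66 TPM against 0 (limma adjusted p = 0.24 and 0.28). FAM160A1 held 5.01 to 6.03 TPM in the grey libraries against 0 (limma adjusted p = 0.60). A value of 0 in these introns says that the intron was not assembled.

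Among the introns named for the smallest p, only ANO5 and MRC2 were assembled in all libraries. ANO5, an anoctamin gene (58.2 kb), held 34.7, 35.6 and 39.9 TPM in the grey and 21.1, 23.2 and 26.2 TPM in the black possums. MRC2, which encodes a collagen receptor of fibroblasts (53.1 kb), held 63.9, 52.0 and 50.3 TPM in the grey and 34.4, 40.8 and 35.0 TPM in the black animals. The colours did not overlap in either intron, as in 2.57% of the long first introns with black below grey. Neither passed the test (log2 differences of −0.63 ± 0.18 and −0.58 ± 0.18 SE, limma adjusted p = 0.88 for each). The MRC2 intron carried 100% of the gene's level. The ANO5 gene totals overlapped, at 34.7, 35.6 and 39.9 TPM in the grey and 39.6, 36.1 and 26.2 TPM in the black possums (log2 difference −0.13, limma unadjusted p = 0.53).

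At the level of genes, 0.0129% of the 15468 measured genes were higher and 0.00646% lower in black skin. Of the 2571 genes with a long first intron 0 were called in either direction by limma, and 50 (1.94%) were below an unadjusted p of 0.05 beside 2.29% of all genes. Each black library was above each grey one for 76 (2.96%, beside 4.08%) and below for 65 (2.53%, beside 2.27%). The median log2 difference was 0.03 over the long first introns and 0.04 over all first introns.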

How the data were processed

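The authors trimmed the reads (120 nt) with Trim Galore (version 0.6.10), mapped them with HISAT2 (version 2.2.1), discarded reads that came from an amplicon library and assembled each library with StringTie (version 2.2.0). The deposited files give exon positions and, for each transcript, coverage, FPKM and TPM; these are normalized values, so no count model was used. Coverage per FPKM gave the aligned bases. RefSeq genes of this assembly were known by their spans only, so strand and exons of genes were inferred from transcripts matching the span, and each transcript was assigned to the gene on its strand sharing most exonic bases. Of 274079 transcripts 230130 were assigned, to 17863 genes. Genes on X below position 10488868 were left out of the assignment. Introns were taken from exon rows, and the 24357 single-exon and 13 unstranded transcripts were not used as members.

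TPM were summed per first intron or gene. On log2(TPM + 1), a scale that understates changes of low values, features that averaged 1 TPM or more were fitted in R (version 4.3.3) with limma (version 3.58.1, trended eBayes). P-values were adjusted by Benjamini-Hochberg over all features, with a threshold of 0.05. Library values were compared by exact 2-sided permutation over 20 assignments or 64 sign flips. Each library is 1 animal. The steps were tested on simulated data. Alternatives were other pseudocounts, filters and length limits, a replicate block and leaving out each library.

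The members, gene lists and tests were chosen with earlier results of these data known. Named were the ASIP introns, the 10 highest and 5 longest introns in all 6 libraries, and the 3 nearest to ASIP in length on each side. Also named were 5 of smallest p in each direction and the 5 genes with most first exon ends on 1 second exon. Pigmentation genes with a long first intron, the 3 highest of each other list and introns beside the limit completed the names. Only genes with a symbol took places. A single one of the introns near ASIP in length is not reported here. Others were named after their values were seen, which holds for the upstream, joined, 3 nt, chromosome 3 and LOC genes.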

Additional observations from a re-analysis of the deposited data

How the results depend on the processing

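The number of transcripts with a long first intron, 149 higher in black, moved to 44.3 with transcripts of at least 1 TPM and to 97.3 with introns in at least 2 libraries, turned to −14.3 per aligned gigabase, and ran from −178 to 422 when 1 library was left out. The median TPM difference turned to −0.0254 with transcripts of at least 1 TPM and fell to 0.0483 TPM (exact sign-flip permutation test, p = 0.34) with introns in at least 2 libraries. With 1 library left out, sign-flip tests over 5 libraries cannot go below 0.0625. The differences then ranged from 38.4 to 42.6 nt for the first exon, 0.27 to 0.34 for the median TPM, 3 to 3.2 for exons, −0.387 to −0.366 percentage points for guide matches and 7.04 to 7.49 percentage points for recurrence, all with the sign reported. Calls of first introns by limma, 14 as reported, were 7 with a pseudocount of 0.1 and 44 without a filter, and 7 to 18 with 1 library left out. For long ones, 2 as reported, they were 1 with a pseudocount of 0.1 and 0 to 2 with 1 library left out. Genes called, 3 as reported, were 1 at a mean of at least 5 TPM and 0 to 6 with 1 library left out. With replicate number as a block, 0 first introns, 0 long ones and 0 genes were called, and the adjusted p was 0.54 for RDX and 0.11 for LOC118846913. The numbers name the animals only: deviations of libraries with the same number correlated between −0.065 and 0.015. Of long introns with a mean of 0.5 to 1.5 TPM 2.44% were assembled in all 6 libraries. The part of depth in this was not tested, and a 0 says only that an intron was not assembled.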
